A study of Mus musculus with 8 samples.

Results

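The genes described here are 8 transcripts of NMuMG, a line of mouse mammary epithelial cells: the chemokines Cxcl1, Cxcl5 and Ccl20, the colony-stimulating factors Csf1, Csf2 and Csf3, the cytokine Il15, and Nfkbia, which encodes the NF-kB inhibitor IκBα. They were chosen by name, with earlier results of these data known. All 8 of 8 were among the 18102 gene rows of the deposited RNA-seq table. Each had a mean normalised read count of at least 10, the level above which 12498 genes were tested. The 8 libraries form 4 groups of 2: cells labelled RREB1 KO given TGFβ, cells labelled RREB1 KO given SB505124, RREB1 WT cells given TGFβ, and RREB1 WT cells given SB505124. All cells were first starved of serum for 6 h. TGFβ was then given at 100 pM for 1.5 h, whereas SB505124, which blocks the kinase of TGFβ type I receptors, was given at 2.5 µM for 6 h, so the treatments differ in length as well as in agent and there is no group without either agent. The KO columns carry the code KO1, taken here as 1 clone, so a difference between KO-labelled and WT cells cannot be told apart from a difference between clones. The labels do not say whether the 2 libraries of a group came from separate cultures, so every p-value measures only the spread between these libraries.

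The Rreb1 transcript itself was not lower in the KO-labelled cells. It had 2481 and 2241 normalised counts in the libraries labelled KO under TGFβ and 1327 and 1343 in those labelled KO under SB505124, against 1959 and 1769 in WT under TGFβ and 1055 and 1033 in WT under SB505124. A read count over the whole gene does not show whether the protein is made, so the genotype is given throughout as it is labelled. Library totals were 25144204 to 32143113 reads. Of the epithelial markers, Krt8, Krt18, Krt19 and Cdh1 were at 13123 normalised counts or more in every library, whereas Epcam was at 0 in all 4 KO-labelled libraries and between 4.01 and 36.6 in the WT libraries. The basal keratin Krt5 lay between 56.8 and 82.1 in the KO-labelled libraries and at 3.43 or less in WT, whereas Krt14 was at 0 in all 4 KO-labelled libraries, against 46.3 and 37.7 in WT under TGFβ and 6.08 and 3.00 in WT under SB505124. The epithelial markers summed to 0.928% and 0.957% of all normalised counts in KO-labelled cells under TGFβ and 0.662% and 0.717% under SB505124, and to 0.823% and 0.816% in WT under TGFβ and 0.633% and 0.655% under SB505124. The leukocyte markers summed to 0.0252% to 0.0372% of all normalised counts in the KO-labelled libraries and 0.0104% to 0.0136% in WT. Most of that sum was Cd14, while Ptprc, which encodes the pan-leukocyte antigen CD45, lay between 1.05 and 11.6 in all 8 libraries. The fibroblast markers, led by Col1a1 and Pdgfra except in WT cells under SB505124, summed to 0.00132% and 0.00134% in KO-labelled cells under TGFβ and 0.000166% and 0.000221% under SB505124, and to 0.00236% and 0.00179% in WT cells under TGFβ and 0.000601% and 0.000581% under SB505124, while Lum and Thy1 were at 1.05 or less. In WT cells under SB505124 the largest was Dcn, at 86.2 and 94.1 normalised counts, which was at 0.86 or less in all 4 KO-labelled libraries. The part of these markers in the results was not tested.

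Chemokines are small secreted proteins that draw leukocytes along a gradient, and the colony-stimulating factors drive the growth and survival of myeloid cells. In mice, CXCL1 and CXCL5 act through CXCR2 on neutrophils, and CCL20 acts through CCR6 on dendritic cells and lymphocytes. CSF1 (M-CSF) supports macrophages, CSF2 (GM-CSF) granulocytes, macrophages and dendritic cells, and CSF3 (G-CSF) neutrophils, whereas IL15 supports natural killer cells and memory T cells. In the mammary gland, CSF1 recruits the macrophages that take part in growth of the ducts. Many of these genes are classical targets of NF-kB, which is held in the cytoplasm by IκBα, and Nfkbia is itself an NF-kB target. Several of the mRNAs are short-lived because their 3′ ends carry AU-rich elements, where proteins such as tristetraprolin (Zfp36) bind.

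The regulatory sequence of the genes is shown first, since NF-kB sites and AU-rich elements are the features for which this family is known. The RefSeq promoter table (GRCm38.p6, 250 bases before to 50 after the start) held 5 of the 8 genes: Cxcl1, Ccl20, Csf1, Csf2 and Nfkbia. The NF-kB consensus, searched on both strands, matched in 4 of these 5, against 4.51% of all 32851 promoters in the table and 5.08% of the 9426 promoters of tested genes. The window without a match was that of Csf2, chr11:54249850-54250149 on the - strand. It lies wholly upstream of the GENCODE M21 start of Csf2 at chr11:54249667, so it does not hold the bases just before that start. The 4 promoters with a match are printed below 5′ to 3′ along the gene's own strand, with the matching bases in capitals. They are chr5:90890995-90891294 on the + strand for Cxcl1, chr1:83116516-83116815 on the + strand for Ccl20, chr3:107760420-107760719 on the - strand for Csf1, and chr12:55492598-55492897 on the - strand for Nfkbia. 
Cxcl1: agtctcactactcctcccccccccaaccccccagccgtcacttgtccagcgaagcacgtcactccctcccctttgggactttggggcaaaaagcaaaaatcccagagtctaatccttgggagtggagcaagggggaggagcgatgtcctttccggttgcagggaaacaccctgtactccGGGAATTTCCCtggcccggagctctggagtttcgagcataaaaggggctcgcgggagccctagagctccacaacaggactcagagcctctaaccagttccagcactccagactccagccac
Ccl20: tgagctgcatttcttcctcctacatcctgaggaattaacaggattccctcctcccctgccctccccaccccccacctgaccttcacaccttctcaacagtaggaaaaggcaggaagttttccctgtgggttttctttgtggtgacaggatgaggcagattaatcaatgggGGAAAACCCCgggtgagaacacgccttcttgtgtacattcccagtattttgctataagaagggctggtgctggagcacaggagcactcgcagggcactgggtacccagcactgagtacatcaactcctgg
Csf1: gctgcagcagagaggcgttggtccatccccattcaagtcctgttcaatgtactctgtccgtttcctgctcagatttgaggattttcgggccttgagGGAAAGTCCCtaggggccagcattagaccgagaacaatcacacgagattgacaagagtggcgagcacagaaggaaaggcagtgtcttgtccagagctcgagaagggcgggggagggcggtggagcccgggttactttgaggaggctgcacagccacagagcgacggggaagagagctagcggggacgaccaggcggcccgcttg
Nfkbia: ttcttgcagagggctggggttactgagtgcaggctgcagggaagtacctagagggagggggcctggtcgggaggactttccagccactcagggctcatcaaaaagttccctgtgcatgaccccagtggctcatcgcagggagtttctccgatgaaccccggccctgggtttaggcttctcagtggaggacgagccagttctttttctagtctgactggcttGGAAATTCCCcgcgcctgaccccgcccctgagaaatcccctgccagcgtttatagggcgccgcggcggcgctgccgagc

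In Cxcl1 the capitals cover a pair of overlapping matches, 1 on each strand, the first starting 71 bases before the annotated start (position -71). The match began at position -80 in Ccl20, -154 in Csf1 and -29 in Nfkbia. The SMAD motif CAGAC, searched on both strands, was present in the windows of Cxcl1, Csf2 and Nfkbia, and in 49.6% of all promoters. The AP-1 motif TGANTCA was in none of the 5 windows and in 7.81% of all promoters. For Csf2 these results cover only the window upstream of its GENCODE M21 start. A match is a run of letters and not a bound site.

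The AU-rich pentamer ATTTA was counted on the sense strand of each gene's annotated 3′ untranslated region (GENCODE M21, GRCm38). Among the 11118 tested genes with such a region of at least 50 bases, the median was 1 pentamer and 1.26 per kb. Csf2 carried 9 pentamers in 317 bases, which is 28.4 per kb and rank 4 of those genes, and Cxcl1 carried 7 in 592 bases, 11.8 per kb and rank 67. Csf3 had 6 pentamers (8.97 per kb, rank 147), Ccl20 had 9 (8.57 per kb, rank 166), and Cxcl5 had 5 (4.5 per kb, rank 987). The densities were 3.91 per kb in Nfkbia, 3.61 in Il15 and 1.89 in Csf1, with ranks of 1330, 1583 and 4139. The longer element TTATTTATT, which overlaps the pentamer, was present in Csf2 (4 copies), Cxcl1 (2 copies) and Nfkbia (1 copy), and in 7.56% of the genes. The 30-base stretches shown here are the densest of the 4 genes with the highest pentamer density, with the pentamers in capitals: chr5:90892602-90892631 (+) for Cxcl1, chr11:54247329-54247358 (-) for Csf2, chr1:83119055-83119084 (+) for Ccl20 and chr11:98702984-98703013 (+) for Csf3. 
Cxcl1: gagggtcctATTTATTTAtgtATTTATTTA
Csf2: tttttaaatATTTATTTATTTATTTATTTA
Ccl20: tgtaaagatATTTAatgttctgtttATTTA
Csf3: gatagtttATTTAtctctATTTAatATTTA

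The first question was how the 8 genes differed between TGFβ and SB505124 in each genotype. In KO-labelled cells the 3 chemokine transcripts and Il15 were lower under TGFβ and Csf1 and Csf2 were higher; in WT cells the 3 chemokines were lower and all 3 colony-stimulating factors were higher. Called means an adjusted p of at most 0.05 with limma and Benjamini-Hochberg adjustment over all genes tested. In KO-labelled cells 2 of the 8 were called higher and 4 lower, where 15.1% and 15.8% of all tested genes were called higher and lower, 30.9% in all. In WT cells 3 of 8 were called higher and 3 lower, where 20.2% and 23.2% of all tested genes were, 43.3% in all. The median log2 fold change of the 8 genes was -0.56 in KO-labelled cells and 0.23 in WT cells, and that of all tested genes was -0.02 in KO-labelled cells and -0.01 in WT cells. These are bulk libraries, in which fewer cells making a transcript and less transcript per cell cannot be told apart.

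**Figure D1:**
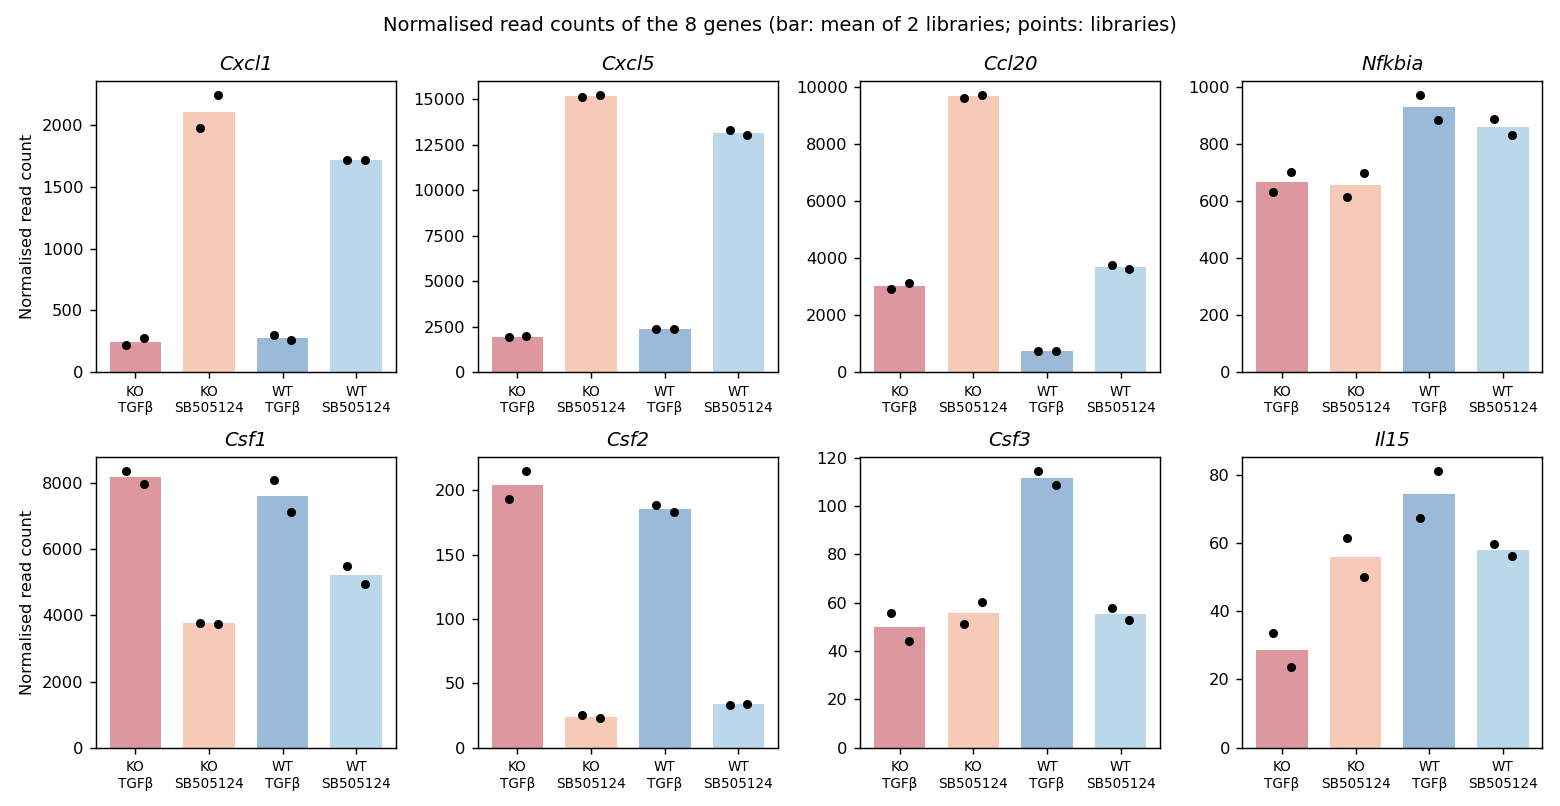
Normalised read count (vertical axis, linear and starting at 0, a separate scale per gene) of the 8 genes in the 4 groups; bars are means of 2 libraries and points the libraries. Cxcl1, Cxcl5 and Ccl20 are low and Csf2 is high under TGFβ in both genotypes, Ccl20 is higher in KO-labelled cells under both treatments, and Csf3 and Il15 separate the genotypes under TGFβ.

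Cxcl1 and Cxcl5 encode the neutrophil chemokines of the set, and they lie 131.9 kb apart, start to start, in the CXC chemokine cluster of chromosome 5 (Cxcl1 at chr5:90891241-90893115 and Cxcl5 at chr5:90759360-90761624, both on the + strand, mm10). Cxcl1 had 218 and 277 normalised counts in KO-labelled cells under TGFβ and 1976 and 2246 under SB505124. In WT cells it had 298 and 256 under TGFβ and 1718 and 1721 under SB505124. The TGFβ and SB505124 libraries did not overlap in either genotype, and the KO-labelled and WT ranges overlapped under TGFβ. The log2 fold change of TGFβ over SB505124 was -3.10 ± 0.12 in KO-labelled cells (SE, limma adjusted p = 1.48e-13), which is 8.55-fold lower, and -2.63 ± 0.12 in WT cells (SE, limma adjusted p = 2.24e-12), which is 6.21-fold lower. 

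Cxcl5 had the highest level per length of the 8 under SB505124. It had 1907 and 1989 normalised counts in KO-labelled cells under TGFβ and 15109.7 and 15244 under SB505124, against 2374 and 2360.2 in WT cells under TGFβ and 13306 and 13028 under SB505124. Neither the treatments nor the genotypes overlapped. TGFβ over SB505124 gave a log2 fold change of -2.96 ± 0.07 in KO-labelled cells (SE, limma adjusted p = 1.13e-15) and -2.48 ± 0.07 in WT cells (SE, limma adjusted p = 8.39e-15), or 7.79-fold and 5.56-fold lower.

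The other CXC genes of the cluster were at low levels or differed by genotype. Cxcl2 and Cxcl3, the close relatives of Cxcl1, had at most 1.05 and 10.2 normalised counts in any library, and Pf4 and Cxcl15 at most 2.89 and 1.01, so these 4 were under the mean of 10 and were not tested. Reads that match more than 1 of these related genes could be split or dropped in counting. The effect of this on the values of Cxcl1, Cxcl2 and Cxcl3 was not tested. Ppbp, which encodes CXCL7 and lies next to Cxcl5, had 62.6 and 70.7 normalised counts in KO-labelled cells under TGFβ and 42.8 and 71.7 under SB505124, against 613 and 549 in WT cells under TGFβ and 486 and 429.6 under SB505124. It was lower in KO-labelled cells under both treatments, by a log2 fold change of -3.10 under TGFβ (limma adjusted p = 6.54e-11) and -3.02 under SB505124 (limma adjusted p = 9.46e-11). Between TGFβ and SB505124 Ppbp had values of 0.26 in KO-labelled cells (limma adjusted p = 0.317) and 0.34 in WT cells (limma adjusted p = 0.146), which did not pass the test.

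**Figure D2:**
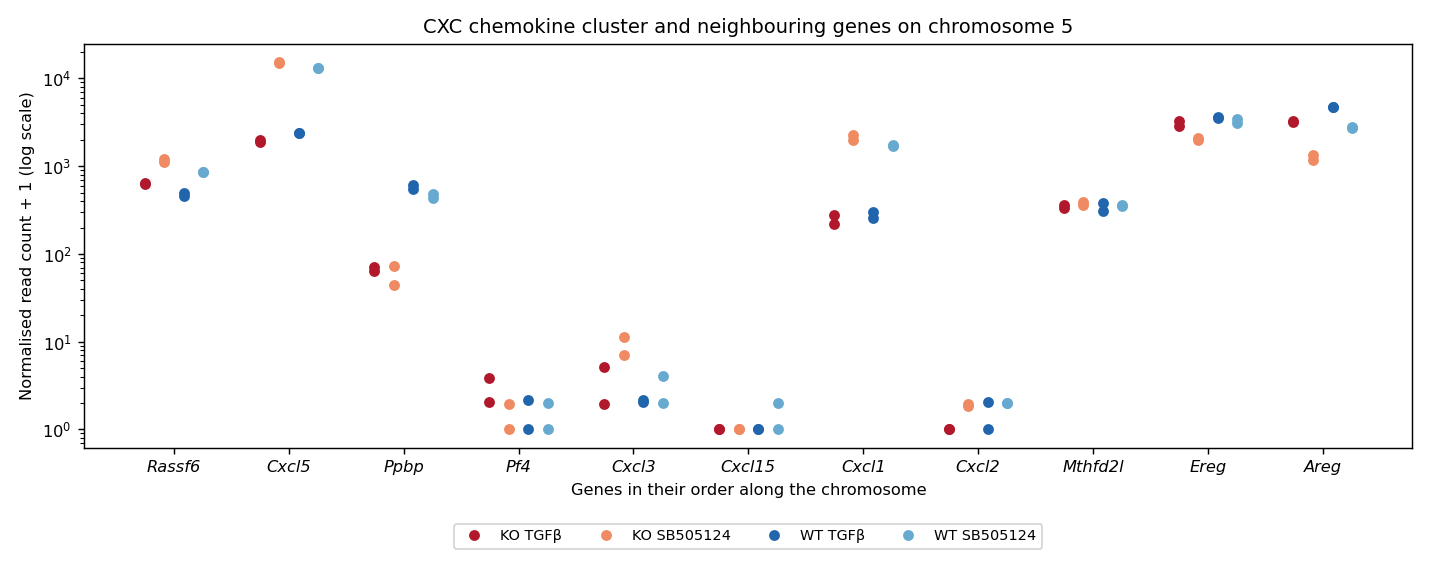
Normalised read count + 1 (vertical log axis) of Cxcl5, Cxcl1 and the genes around them, in their order along chromosome 5 (horizontal axis, not to scale); each point is 1 library, coloured by group. Among the CXC genes, Cxcl5 and Cxcl1 are low under TGFβ in both genotypes, Ppbp is low in the KO-labelled libraries, and Pf4, Cxcl3, Cxcl15 and Cxcl2 are near the bottom of the axis.

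Ccl20, which encodes the ligand of CCR6 and lies at chr1:83116766-83119167 (+), moved with the treatment and with the genotype. It had 2911 and 3128 normalised counts in KO-labelled cells under TGFβ and 9625 and 9719 under SB505124, against 744 and 736 in WT cells under TGFβ and 3741 and 3599.7 under SB505124. No group overlapped another, and the KO-labelled libraries were higher than the WT libraries under each treatment. Its fall under TGFβ, as a log2 fold change over SB505124, was -1.68 ± 0.08 in KO-labelled cells (SE, limma adjusted p = 2.41e-12) and -2.31 ± 0.08 in WT cells (SE, limma adjusted p = 2.97e-14), or 3.2-fold and 4.95-fold lower. 

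Csf1 lies at chr3:107741048-107760469 on the - strand. It had 8372 and 7955 normalised counts in KO-labelled cells under TGFβ and 3779 and 3743 under SB505124. In WT cells it had 8093 and 7127 under TGFβ and 5488 and 4940.5 under SB505124. The treatments did not overlap in either genotype; the genotypes overlapped under TGFβ and not under SB505124, where the KO-labelled libraries were lower. TGFβ over SB505124 gave a log2 fold change of 1.12 ± 0.08 in KO-labelled cells (SE, limma adjusted p = 3.65e-09) and 0.55 ± 0.08 in WT cells (SE, limma adjusted p = 4.17e-05), or 2.17-fold and 1.46-fold higher.

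Csf2 rose by the largest factor of the 8 from a low level. It had 194 and 215 normalised counts in KO-labelled cells under TGFβ and 25.1 and 23.3 under SB505124. In WT cells it had 188 and 183 under TGFβ and 33.5 and 34.0 under SB505124. Its log2 fold change, TGFβ over SB505124, was 3.02 ± 0.19 in KO-labelled cells (SE, limma adjusted p = 1.96e-10) and 2.43 ± 0.19 in WT cells (SE, limma adjusted p = 6.41e-09), or 8.14-fold and 5.37-fold higher on the scale of log2(value + 1). The genotype ranges did not overlap under either treatment. The gene, at chr11:54247271-54249667 on the - strand, is overlapped by the antisense gene Gm12223 on the + strand, and with an unstranded kit the reads of the pair cannot be told apart.

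Csf3, at chr11:98701263-98703629 (+), differed between the treatments in WT cells. It had 55.8 and 44.1 normalised counts in KO-labelled cells under TGFβ and 51.2 and 60.5 under SB505124, against 115 and 109 in WT cells under TGFβ and 57.8 and 53.1 under SB505124. The WT libraries under TGFβ were above the other 6, which overlapped each other. For Csf3 the log2 fold change of TGFβ over SB505124 was -0.16 ± 0.21 in KO-labelled cells (SE, 95% interval -0.59 to 0.27, limma adjusted p = 0.593) and 1.00 ± 0.21 in WT cells (SE, limma adjusted p = 0.000743).

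Il15, at chr8:82331632-82403222 on the - strand, had the lowest level per length of the 8 in all 4 groups. It had 33.7 and 23.6 normalised counts in KO-labelled cells under TGFβ and 61.4 and 50.1 under SB505124, against 67.4 and 81.2 in WT cells under TGFβ and 59.8 and 56.1 under SB505124. The KO-labelled libraries under TGFβ were the lowest of the 8, and the SB505124 libraries of the genotypes overlapped. Its log2 fold change of TGFβ over SB505124 was -0.95 ± 0.24 in KO-labelled cells (SE, limma adjusted p = 0.00469) and 0.35 ± 0.24 in WT cells (SE, 95% interval -0.15 to 0.84, limma adjusted p = 0.25). Without KO-labelled TGFβ replicate 2 the value in KO-labelled cells was -0.70 (limma adjusted p = 0.0775), and without KO-labelled SB505124 replicate 1 it was -0.81 (limma adjusted p = 0.0612).

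Nfkbia, at chr12:55489410-55492647 on the - strand, was not called between the treatments. It had 632 and 702 normalised counts in KO-labelled cells under TGFβ and 613 and 699 under SB505124, against 974 and 887 in WT cells under TGFβ and 889 and 831 under SB505124. The treatment ranges overlapped in both genotypes, and all 4 KO-labelled libraries were below all 4 WT libraries. The log2 fold change of TGFβ over SB505124 was 0.03 ± 0.10 in KO-labelled cells (SE, 95% interval -0.18 to 0.24, limma adjusted p = 0.876) and 0.11 ± 0.10 in WT cells (SE, 95% interval -0.10 to 0.32, limma adjusted p = 0.388).

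The next question was whether the response to TGFβ differed between the genotypes, which the fit tests as the KO-labelled response minus the WT response. Of the 8 genes, 5 were called, 2 with a higher and 3 with a lower response in KO-labelled cells. Among all tested genes 2.25% and 0.568% were called higher and lower, 2.82% in all. The 8 genes were chosen with earlier results of these data known, so these shares do not test the set. The fall of Cxcl5 was deeper in KO-labelled cells (difference -0.49 ± 0.10, SE, limma adjusted p = 0.0121) and the fall of Ccl20 was shallower (difference 0.63 ± 0.11, SE, limma adjusted p = 0.00205). The rise of Csf1 was larger in KO-labelled cells (difference 0.57 ± 0.12, SE, limma adjusted p = 0.00916). The responses of Csf3 and Il15 were lower in KO-labelled cells, with differences of -1.16 ± 0.29 (SE, limma adjusted p = 0.038) and -1.30 ± 0.34 (SE, limma adjusted p = 0.043).

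Cxcl1, Csf2 and Nfkbia were not called in that comparison. The difference was -0.46 for Cxcl1 (95% interval -0.81 to -0.12, limma adjusted p = 0.15), 0.60 for Csf2 (95% interval 0.05 to 1.15, limma adjusted p = 0.252) and -0.09 for Nfkbia (95% interval -0.38 to 0.21, limma adjusted p = 0.819). The interval of a difference is not adjusted for the number of genes tested. The count of 5 depended on the fit: DESeq2 called 3 of the 8, edgeR 5, and limma without a variance trend 0, with 6 at an unadjusted p under 0.05. Ccl20 lost its call only in that last fit, at an adjusted p of 0.0706, among 18 alternatives. Csf3 lost it in 10 of 18 alternatives and Il15 in 9 of 18, with adjusted p up to 0.15 and 0.178. Leaving out 1 library gave between 1 and 5 called members: 1 without WT SB505124 replicate 1, 2 without WT SB505124 replicate 2 or without KO-labelled TGFβ replicate 1, and 3 without WT TGFβ replicate 2. Cxcl5 had limma adjusted p of 0.078, 0.0915 and 0.102 in the first 3 of these fits, and Csf1 had 0.119 without WT SB505124 replicate 1 and 0.0838 without KO-labelled TGFβ replicate 1. With the replicate number as a block 3 of the 8 were called, and Csf3 and Il15 had limma adjusted p of 0.0667 and 0.0743.

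**Figure D3:**
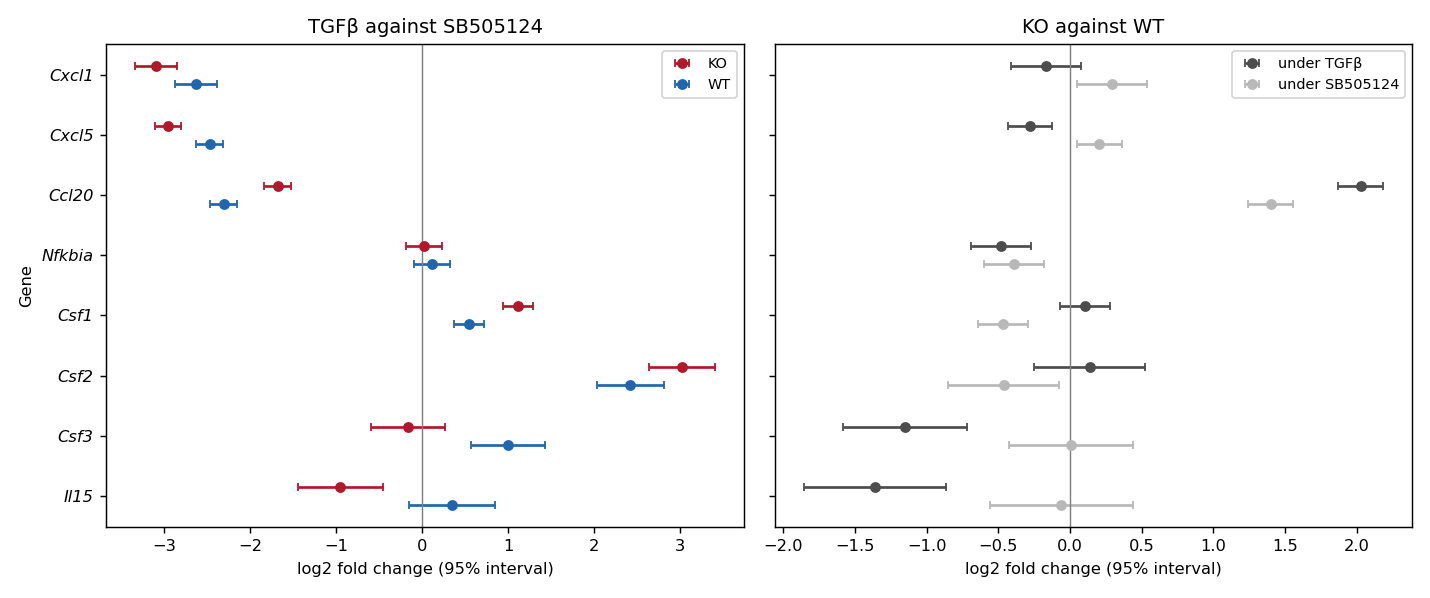
Log2 fold change (horizontal axis) with its 95% interval for each of the 8 genes: left, TGFβ over SB505124 in KO-labelled and WT cells; right, KO-labelled over WT cells under TGFβ and under SB505124. The chemokines lie left of 0 and Csf1 and Csf2 right of 0 in the left panel for both genotypes, and in the right panel Ccl20 lies at 2.03 and 1.40.

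The genotypes were also compared within each treatment. Under TGFβ, 1 of the 8 was called higher and 4 lower in KO-labelled cells, where 32.7% and 30.2% of all tested genes were called higher and lower. Under SB505124, 3 of the 8 were called higher and 3 lower, where 29.2% and 27.7% were. The 6 calls under SB505124 became 3 without either WT SB505124 library or without KO-labelled SB505124 replicate 2. Most tested genes thus differed between the genotypes, 62.9% of them under TGFβ and 56.9% under SB505124. The median log2 fold change of the 8 genes was -0.23 under TGFβ and -0.03 under SB505124, against 0.01 for all tested genes under each treatment.

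Ccl20 was the member with the largest difference between the genotypes. It was 4.07-fold higher in KO-labelled cells under TGFβ (log2 fold change 2.03 ± 0.08, SE, limma adjusted p = 6.44e-14) and 2.64-fold higher under SB505124 (log2 fold change 1.40 ± 0.08, SE, limma adjusted p = 1.39e-11). Nfkbia was lower in KO-labelled cells under TGFβ (log2 fold change -0.48 ± 0.10, SE, limma adjusted p = 0.000405) and under SB505124 (-0.39 ± 0.10, SE, limma adjusted p = 0.00257). These 2 genes were called in the same direction under both treatments in all 19 alternatives.

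Csf3 and Il15 were lower in KO-labelled cells under TGFβ, by log2 fold changes of -1.15 ± 0.21 (SE, limma adjusted p = 8.47e-05) and -1.36 ± 0.24 (SE, limma adjusted p = 6.57e-05). Under SB505124 their values were 0.01 ± 0.21 (SE, limma adjusted p = 0.982) for Csf3 and -0.06 ± 0.24 (SE, limma adjusted p = 0.844) for Il15. Cxcl5 was called in opposite directions, lower in KO-labelled cells under TGFβ (-0.28 ± 0.07, SE, limma adjusted p = 0.00263) and higher under SB505124 (0.21 ± 0.07, SE, limma adjusted p = 0.0228). The SB505124 value of Cxcl5 lost its call when either library of either SB505124 group was left out, with adjusted p of 0.0774 to 0.122.

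Csf1 was lower in KO-labelled cells under SB505124 (-0.47 ± 0.08, SE, limma adjusted p = 9.21e-05), and its value under TGFβ was 0.10 ± 0.08 (SE, limma adjusted p = 0.291). Cxcl1 was higher under SB505124 (0.29 ± 0.12, SE, limma adjusted p = 0.0387) and Csf2 was lower (-0.46 ± 0.19, SE, limma adjusted p = 0.0395), and these calls were lost in 8 and 13 of 19 alternatives. The largest of these adjusted p were 0.234 for Cxcl1, without KO-labelled SB505124 replicate 2, and 0.204 for Csf2, in DESeq2. With the replicate number as a block the adjusted p of Cxcl1 was 0.06 (limma). Under TGFβ the values were -0.17 ± 0.12 for Cxcl1 (SE, limma adjusted p = 0.214) and 0.14 ± 0.19 for Csf2 (SE, limma adjusted p = 0.539), and without KO-labelled TGFβ replicate 2 that of Cxcl1 was -0.34 (limma adjusted p = 0.0294).

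To see whether the genes around a member moved with the genotype too, the median log2 fold change of the 20 tested genes nearest to each member was taken, KO-labelled over WT. Around Ccl20 it was 0.06 under TGFβ and 0.13 under SB505124, beside values of 2.03 and 1.40 for Ccl20 itself. Around the others it lay between 0.03 and 0.28 under TGFβ and between 0.03 and 0.35 under SB505124, and it was highest around Cxcl5. Under SB505124 it was 0.35 around Cxcl5 and 0.30 around Cxcl1, whose own differences of 0.21 and 0.29 were no larger. Medians over whole chromosomes lay between -0.01 and 0.12.

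Levels of different genes can be compared only per length, so normalised counts were divided by the exon length of each gene in kb. In KO-labelled cells under TGFβ the order of the group means was Ccl20 (2125 per kb), Csf1 (1546), Cxcl5 (1046), Nfkbia (414), Csf2 (256), Cxcl1 (132), Csf3 (35.4) and Il15 (12.7). In KO-labelled cells under SB505124 it was Cxcl5 (8146 per kb), Ccl20 (6807), Cxcl1 (1126), Csf1 (712), Nfkbia (408), Csf3 (39.5), Csf2 (30.3) and Il15 (24.7). In WT cells under TGFβ it was Csf1 (1441 per kb), Cxcl5 (1270.0), Nfkbia (578), Ccl20 (521), Csf2 (232), Cxcl1 (148), Csf3 (79.0) and Il15 (32.8). In WT cells under SB505124 it was Cxcl5 (7068 per kb), Ccl20 (2583), Csf1 (987), Cxcl1 (917), Nfkbia (534), Csf2 (42.2), Csf3 (39.2) and Il15 (25.6). No neighbours in these orders overlapped in their 2 libraries, though some were close: in WT cells under SB505124 the nearest libraries of Csf1 and Cxcl1 were at 936 and 918 per kb, and those of Csf2 and Csf3 at 41.8 and 40.9. In both genotypes Csf1 stood above Cxcl5 under TGFβ and below it under SB505124, and Ccl20 was first in KO-labelled cells under TGFβ.

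Over the 8 libraries, Pearson's r of log2(value + 1) was 0.997 between Cxcl1 and Cxcl5, -0.994 between Cxcl1 and Csf2, and 0.955 between Csf1 and Csf2. Nfkbia was most unlike Ccl20, at an r of -0.72. These are descriptions, since the points fall into 4 groups that share libraries, depth and the same contrasts. Among 10416 other genes with a mean of at least 50, the 3 nearest to Cxcl1 were Cxcl5, Pim3 (0.995) and Hs3st1 (0.993), and those nearest to Cxcl5 were Cxcl1, Pim3 (0.996) and Lbh (0.994). Those nearest to Ccl20 were Adnp2, Map3k13 and Fam84b, with r from 0.994 to 0.997, and those nearest to Csf1 were Nhsl1, Slc20a1 and Cyb561a3, with r from 0.994 to 0.997. Arid5a, Dyrk3 and Irx5 were nearest to Csf2, with r from 0.997 to 0.998. The nearest genes of the remaining members were Ggct, Rrp36 and Trim62 for Csf3 (0.964 to 0.978), Rcor3, Cdca7 and Zfyve19 for Il15 (0.955 to 0.970), and Rsrp1, Acd and Mrgbp for Nfkbia (0.9902, 0.99 and 0.9876).

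Other genes of the same pathways were read from lists chosen by name, also with earlier results of these data known. Of 35 other chemokine genes, 15 were tested. Under TGFβ against SB505124, 2 of these 15 rose in KO-labelled cells and 4 in WT cells, where 15.1% and 20.2% of all tested genes did. Cxcl10, which draws T cells, rose in KO-labelled cells (log2 fold change 1.58, limma adjusted p = 5.01e-05) and in WT cells (0.85, limma adjusted p = 0.00834). Ccl9 rose as well, by 0.66 in KO-labelled cells (limma adjusted p = 0.00479) and 0.91 in WT cells (limma adjusted p = 0.000238). Ccl6 and Cxcl16 were called in WT cells, with log2 fold changes of 1.13 (limma adjusted p = 0.0211) and 1.00 (limma adjusted p = 0.00287), and had values of 0.80 (limma adjusted p = 0.115) and 0.01 (limma adjusted p = 0.987) in KO-labelled cells, where Cxcl16 had at most 18.5 normalised counts. The other 13 in KO-labelled cells and 11 in WT cells did not pass the test. In the difference of responses limma, edgeR and DESeq2 each called 0 of the 15, with 3 at an unadjusted p under 0.05 in limma.

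Between the genotypes, 5 of the 15 other chemokines were higher and 5 lower in KO-labelled cells under TGFβ, and 4 were higher and 3 lower under SB505124. These shares are near those of all tested genes, which were 32.7% higher and 30.2% lower under TGFβ and 29.2% and 27.7% under SB505124. Cxcl16 had 8.66 and 18.5 normalised counts in KO-labelled cells under TGFβ and 10.2 and 15.6 under SB505124, against 1535 and 1521 in WT cells under TGFβ and 795 and 733 under SB505124. Its log2 fold change between the genotypes was -6.80 under TGFβ (limma adjusted p = 3.59e-14) and -5.81 under SB505124 (limma adjusted p = 3.42e-13). Cxcl12, which guides stem cells and lymphocytes, had 0 reads in all 4 KO-labelled libraries and was at least 30-fold lower under TGFβ and at least 12.4-fold lower under SB505124, against a floor of 3 reads over the group. Cxcl12, counted among the lower genes, reached the mean of 10 only through its WT libraries. A chemokine as low in both genotypes would not have been tested.

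Of 23 other cytokines, 12 were tested, and 4 rose and 2 fell under TGFβ in each genotype. Among all tested genes 15.1% rose and 15.8% fell in KO-labelled cells, and 20.2% rose and 23.2% fell in WT cells. Il11, a cytokine of the IL6 family, had the largest change. It had 1259 and 1203 normalised counts in KO-labelled cells under TGFβ and 15.8 and 18.1 under SB505124, against 758 and 629 in WT cells under TGFβ and 28.4 and 28.0 under SB505124. Its log2 fold change was 6.10 in KO-labelled cells (limma adjusted p = 1.13e-15) and 4.57 in WT cells (limma adjusted p = 3.98e-14). Il34, which like CSF1 is a ligand of the CSF1 receptor, rose by 2.79 in KO-labelled cells (limma adjusted p = 1.14e-11) and 1.25 in WT cells (limma adjusted p = 1.15e-06). Kitl, which encodes stem cell factor, fell by 1.12 in KO-labelled cells (limma adjusted p = 1.02e-09) and by 1.13 in WT cells (limma adjusted p = 1.17e-09). Tnf and Il6 had at most 2.79 and 1.86 normalised counts, and Il1a and Il1b at most 10.1 and 16.4, in any library.

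**Figure D4:**
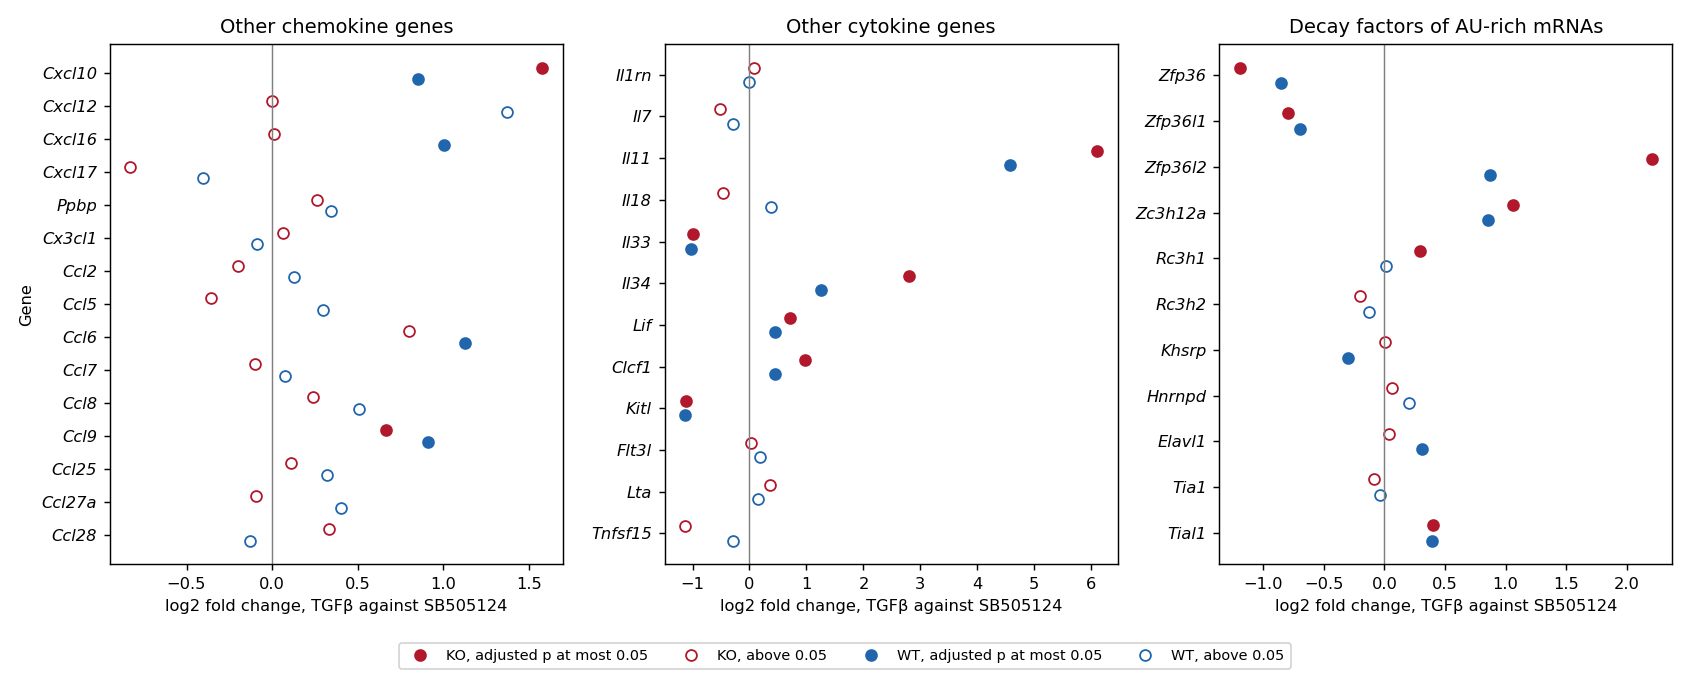
Log2 fold change of TGFβ over SB505124 (horizontal axis) for the tested other chemokines, other cytokines and listed RNA-binding proteins, in KO-labelled and WT cells. The panel titled decay factors also holds proteins that do not promote decay. Filled points have a limma adjusted p of at most 0.05. Il11, Il34 and Zfp36l2 lie farther right in KO-labelled cells than in WT cells; the KO-labelled point of Cxcl12 is at 0 because it had no reads there.

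The cells carried few transcripts of the receptors for these ligands. Of 12 receptor genes 9 were in the table and 3 were tested, and Cxcr2, Csf3r, Csf2rb, Csf2rb2, Il2rb and Il2rg were under the mean of 10. Csf1r had 13.5 and 12.3 normalised counts in KO-labelled cells under TGFβ and 8.38 and 7.77 under SB505124, against 53.7 and 38.9 in WT cells under TGFβ and 34.5 and 24.0 under SB505124. All 3 tested receptors were called lower in KO-labelled cells under TGFβ and under SB505124, where 30.2% and 27.7% of all tested genes were. The log2 fold changes were -2.89 under TGFβ and -3.07 under SB505124 for Csf2ra, -2.34 and -2.35 for Il15ra, and -1.75 and -1.72 for Csf1r. Their limma adjusted p lay between 7.27e-07 and 0.000256. Csf2ra and Il15ra reached the mean of 10 through their WT libraries, so a receptor as low in both genotypes would not have been tested. Between TGFβ and SB505124 limma called 0 of the 3 in either genotype. At an unadjusted p under 0.05 there was 1 in KO-labelled cells and 0 in WT cells; edgeR called 0 in KO-labelled cells and 1 in WT cells, and DESeq2 0 in each.

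All 17 listed upstream receptors and adaptors were tested. Under TGFβ 7 rose and 5 fell in KO-labelled cells, where 15.1% and 15.8% of all tested genes did. In WT cells 5 rose and 6 fell, where 20.2% and 23.2% of all tested genes did. Tlr2, a sensor of bacterial lipoproteins, rose by 1.94 in KO-labelled cells (limma adjusted p = 1.57e-06) and 1.71 in WT cells (limma adjusted p = 6.9e-06), and Tlr4, the sensor of lipopolysaccharide, fell by 1.26 in KO-labelled cells (limma adjusted p = 4.68e-06) and 1.19 in WT cells (limma adjusted p = 8.82e-06). Tnfrsf1b, a TNF receptor, rose by 1.48 in KO-labelled cells (limma adjusted p = 2.57e-10) and 1.16 in WT cells (limma adjusted p = 1.23e-08). Between the genotypes, 7 of the 17 were called higher and 6 lower in KO-labelled cells under TGFβ, and 6 higher and 7 lower under SB505124. Of all tested genes, 32.7% and 30.2% were under TGFβ, and 29.2% and 27.7% under SB505124. Tlr2 was higher in KO-labelled cells by 1.54 under TGFβ and 1.32 under SB505124 (limma adjusted p = 8.18e-06 and 5.56e-05). Tlr4 was lower by a log2 fold change of -4.13 under TGFβ and -4.06 under SB505124 (limma adjusted p = 9.3e-14 and 1.12e-13). Il1rap, the accessory chain of the IL1 receptor, had 0 reads in all 4 KO-labelled libraries, at least 16.2-fold lower under TGFβ and 22.9-fold lower under SB505124. Il1rap reached the mean of 10 through its WT libraries.

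Of 15 NF-kB subunits, kinases and inhibitors other than Nfkbia, 4 rose and 2 fell under TGFβ in KO-labelled cells, and 2 rose and 2 fell in WT cells. The shares of all tested genes that rose and fell were 15.1% and 15.8% in KO-labelled cells, and 20.2% and 23.2% in WT cells. Map3k14, the kinase of the non-canonical NF-kB pathway, rose by 1.32 in KO-labelled cells (limma adjusted p = 8.28e-09) and 0.96 in WT cells (limma adjusted p = 7.41e-07). Bcl3, a nuclear partner of the p50 and p52 subunits, rose by 0.76 in KO-labelled cells (limma adjusted p = 1.85e-05) and had a value of -0.11 in WT cells (limma adjusted p = 0.427). Of 15 further NF-kB feedback and target genes, 4 rose and 4 fell in KO-labelled cells, and 3 rose and 5 fell in WT cells, beside the same shares of all tested genes.

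The last list held 11 genes for RNA-binding proteins that act on mRNA stability or translation, and all 11 were tested. It mixes factors that promote decay with others that do not, so its counts are not counts of decay factors. Under TGFβ 4 rose and 2 fell in KO-labelled cells, where 15.1% and 15.8% of all tested genes did. In WT cells 4 rose and 3 fell, where 20.2% and 23.2% of all tested genes did. Zfp36, which encodes tristetraprolin and promotes decay of AU-rich mRNAs, fell by 1.19 in KO-labelled cells (limma adjusted p = 6.42e-08) and 0.85 in WT cells (limma adjusted p = 5.07e-06). Its relative Zfp36l2 moved the other way, with 10837 and 10059.9 normalised counts in KO-labelled cells under TGFβ and 2214 and 2312 under SB505124, against 4826 and 5032 in WT cells under TGFβ and 2644 and 2741 under SB505124. Its log2 fold change was 2.21 in KO-labelled cells (limma adjusted p = 4.88e-14) and 0.87 in WT cells (limma adjusted p = 4.58e-08). Zc3h12a, which encodes the RNase regnase-1, rose by 1.06 in KO-labelled cells (limma adjusted p = 3.83e-06) and 0.85 in WT cells (limma adjusted p = 4.41e-05). Of the members with the densest ATTTA pentamers, Csf2 rose in both genotypes, Cxcl1 and Ccl20 fell in both, and Csf3 rose in WT cells.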

How the data were processed

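The deposited table gives a signal per gene and library, which the authors made by scaling read counts with a size factor. The submitters' processing notes name the build mm10, DESeq2 3.4, HTSeq 0.6.1p1 and FastQC 0.11.5; the aligner is not given in the sources used here. Libraries were unstranded (TruSeq RNA v2, per the labels). Every value was a whole multiple of 1 step per library (100% within 0.01 reads), which gave back the reads, with size factors of 0.875 to 1.158. Replicates of a group differed by more than sampling noise. Counting error alone is 18.3% of a value of 30 reads and 3.2% of 1000 reads.

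Values were log2 transformed after adding 1, which understates fold changes of low genes, and genes with a mean of at least 10 were kept. The 4 group means were estimated from all 8 libraries (4 residual degrees of freedom, 14.3 added by the prior) by limma 3.58.1 in R 4.3.3, using a variance trend and Benjamini-Hochberg adjustment over all 12498 genes, at a threshold of 0.05. The comparisons share libraries, so they are not independent of each other. The script was tested on simulated data. Alternatives were edgeR 4.0.16 and DESeq2 1.42.0 on the recovered reads, pseudocounts of 0.5 and 8, other filters, other scalings, no variance trend, a replicate block, only the 2 groups compared, and leaving out each library. The members and the gene lists were chosen with earlier results of these data known. All 8 members are named; from each list, at most 3 genes per comparison were eligible, those with the largest absolute log2 fold change among the called, and a gene eligible in 1 comparison is also given with its values in others; and for each member the 3 genes with the highest Pearson r. Coordinates come from GENCODE M21 (GRCm38), promoters from RefSeq (GRCm38.p6). The promoters of Cxcl5, Csf3 and Il15 were not used here.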

Additional observations from a re-analysis of the deposited data

Results flagged for a closer look

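The responses of 5 of the 8 genes differed between the genotypes by the interaction term of the limma fit, as KO-labelled response minus WT response on the log2 scale. The difference was -0.486 for Cxcl5, 0.628 for Ccl20, 0.573 for Csf1, -1.16 for Csf3 and -1.299 for Il15, with adjusted p from 0.00205 to 0.043. In the lists of related genes the same term was called for Il34 (1.546), Il11 (1.536), Zfp36l2 (1.333) and Bcl3 (0.865), with limma adjusted p from 1.55e-06 to 0.00234. Groups of 2 libraries are too small to test whether 1 library stands apart. All 4 KO-labelled libraries are taken as 1 clone.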

How the results depend on the processing

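Of 752 member results under alternatives, 683 kept their direction and side of the threshold, 55 lost a call, 2 gained one and 12 changed sign; the cause was not tested. The TGFβ responses of Cxcl1, Cxcl5, Ccl20, Csf1 and Csf2 in both genotypes, and of Csf3 in WT, kept their call in 19 of 19 alternatives. In the difference of responses, 352 genes and 5 members became 134 and 2 with no filter on low values and 47 and 0 with no variance trend (6 members at an unadjusted p under 0.05), while DESeq2 called 3 members and edgeR 5. Leaving out 1 library gave 141 to 1050 genes and 1 to 5 members: 141 without WT SB505124 replicate 1, 170 without WT SB505124 replicate 2, 150 without KO TGFβ replicate 1 and 1050 without WT TGFβ replicate 1. For TGFβ in KO it gave 2318 to 4398 genes (main 3864), with 2331 without KO SB505124 replicate 1 and 2318 without KO TGFβ replicate 2. For members between the genotypes under SB505124 it gave 3 to 5 (main 6), with 3 without either WT SB505124 replicate or KO SB505124 replicate 2.

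Sign changes touched only values that were not called. For the same results, the most extreme value with the sign of the main fit was also read over the fits without 1 library. Under TGFβ in KO it was -0.329 for Csf3 and 0.12 for Nfkbia, and for the Nfkbia difference of responses it was -0.181. Between the genotypes it was 0.125 for Csf3 and -0.205 for Il15 under SB505124, and -0.343 for Cxcl1 under TGFβ. Nfkbia under TGFβ in KO was -0.016 with equal totals, -0.068 without KO SB505124 replicate 1 and -0.05 without KO TGFβ replicate 2, and its difference of responses was 0.007 without KO SB505124 replicate 2. Csf3 between the genotypes under SB505124 was -0.009 in edgeR, -0.013 with equal totals, -0.021 with TMM scaling, -0.054 without WT SB505124 replicate 2 and -0.111 without KO SB505124 replicate 2. Csf3 under TGFβ in KO was 0.005 without KO TGFβ replicate 2, Il15 between the genotypes under SB505124 was 0.084 without KO SB505124 replicate 2, and Cxcl1 between the genotypes under TGFβ was 0.003 without KO TGFβ replicate 1. Cxcl1 gained a call for the difference of responses without KO TGFβ replicate 2 (-0.635, limma adjusted p = 0.0453). The difference of responses of Cxcl5 lost its call in 4 of 18 alternatives and that of Csf1 in 4 of 18, with limma adjusted p up to 0.112 and 0.148.

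The replicate numbers are shared between groups, but with only 2 numbers nothing shows that they pair the libraries; deviations of same-numbered libraries correlated between -0.199 and 0.198. With the replicate number as a block, 3 members were called in the difference of responses, and 252 genes against 352; beside the calls of Csf3, Il15 and Cxcl1 given with their results it changed no other member's call. With equal totals the genes higher and lower under TGFβ were 1608 and 2528 in KO (main 1888 and 1976) and 2067 and 3458 in WT (main 2520 and 2896), and with TMM scaling 2000 and 1779 in KO. edgeR on the recovered reads called 4023 genes for TGFβ in KO, 5552 in WT, 418 for the difference of responses, and 7926 and 7233 between the genotypes under TGFβ and SB505124. Where a group kept 1 library, that library was assumed to vary like the others.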
